A study of Drosophila melanogaster with 23 samples.

Results

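Whole males were compared with whole females of Drosophila melanogaster kept at 24 °C, using 8 of the 23 RNA-seq libraries of a study of temperature and lifespan. The 8 libraries were taken by their sex and temperature labels: 4 from males at 24 °C and 4 from females at 24 °C. All flies were virgin w1118, a laboratory strain that carries a mutation of the white eye colour gene, and were 45 days old when frozen. Each library was made from a pool of 10 whole flies, so that all tissues contributed, and the flies were moved as young adults from 24 °C to their test temperature or left at 24 °C. The other 15 libraries, from both sexes at 18 °C (45 days) and at 28 °C (35 days), were used to estimate the spread between replicates and, in the last comparison, to ask whether the sex difference at 24 °C differed from that at the other temperatures. Values are given as scaled CPM, counts scaled to a common library total after correction by the size factor of the library. Changes are log2 fold changes of males over females, so that a positive value means higher in males. The SE of a change was derived from the test, as the size of the change divided by the square root of the F statistic. It is therefore approximate, most of all for very small changes and very low counts. A gene was called when its adjusted p was below 0.01 (quasi-likelihood test of edgeR, adjusted by Benjamini and Hochberg across the features tested).

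In flies, the ratio of X chromosomes to autosomes sets the splicing cascade of Sxl, tra, dsx and fru, which gives the body its sex, while males raise the output of their single X through a complex of MSL proteins and roX RNAs. The largest female organ is the ovary, which holds germ cells, nurse cells that copy their DNA many times over, and follicle cells that lay down the eggshell; the fat body and follicle cells supply yolk. In males the testis makes sperm with a transcription programme of its own, and the accessory glands, ejaculatory duct and ejaculatory bulb make seminal fluid. In RNA from whole bodies, fewer cells of a type and less RNA per cell cannot be told apart.

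Males had 17727137 to 19341153 counts per library, against 22221723 to 22464009 in females, so depth and sex changed together. The first principal component of the 8 libraries held 94.0% of the variance and separated the sexes, and the second held 2.42%. On the second component the library of male replicate 1 stood apart at 30.8, against −18.0 to −5.56 for the other males and −6.39 to 9.05 for the females. In that library a single transcript took 12.96% of the counts, against 7.30% to 9.06% in the other males and 5.52% to 7.28% in the females, the 11 sperm structure genes tested summed to 8107 CPM, against 4643 to 5589 CPM in the other males, and the 36 digestive genes to 5304 CPM, against 10979 to 14864 CPM. Results were therefore also computed without it. No replicate pair was close enough to be the same library deposited again.

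Of the 10897 features tested, 7999 (73.4%) were called between males and females at 24 °C. Males were higher for 3991 of them (36.6% of those tested) and lower for 4008 (36.8%). Changes of at least 2-fold were found for 2234 genes higher in males (20.5%) and for 1900 genes lower in males (17.4%). The 2 sides differed in their extremes. A log2 change of 4 or more was found for 448 genes higher in males and for 108 genes lower in males. The deposited counts held no value of 0, so genes with no reads in 1 sex may be missing from both sides. These numbers and the shares of counts below therefore describe only the genes that have an entry. The 448 genes held 6.48% ± 1.11 of the counts in males and 0.0876% ± 0.00451 in females, whereas the 108 genes held 0.0473% ± 0.00282 of the counts in males and 2.81% ± 0.232 in females (SD, n = 4 each). The median of all features was a log2 change of 0.05. The size factors are set by the typical gene, so this median and the near-even split follow in part from the scaling. With TMM factors, another scaling, 4279 genes were higher and 3776 lower in males, and the median was 0.12. All 4 male libraries lay above all 4 female libraries for 4068 features (37.3%) and below them for 4037 (37%). Without male replicate 1, 3918 genes were higher and 3985 lower in males. The count for each gene list is to be read against these shares.

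**Figure D1:**
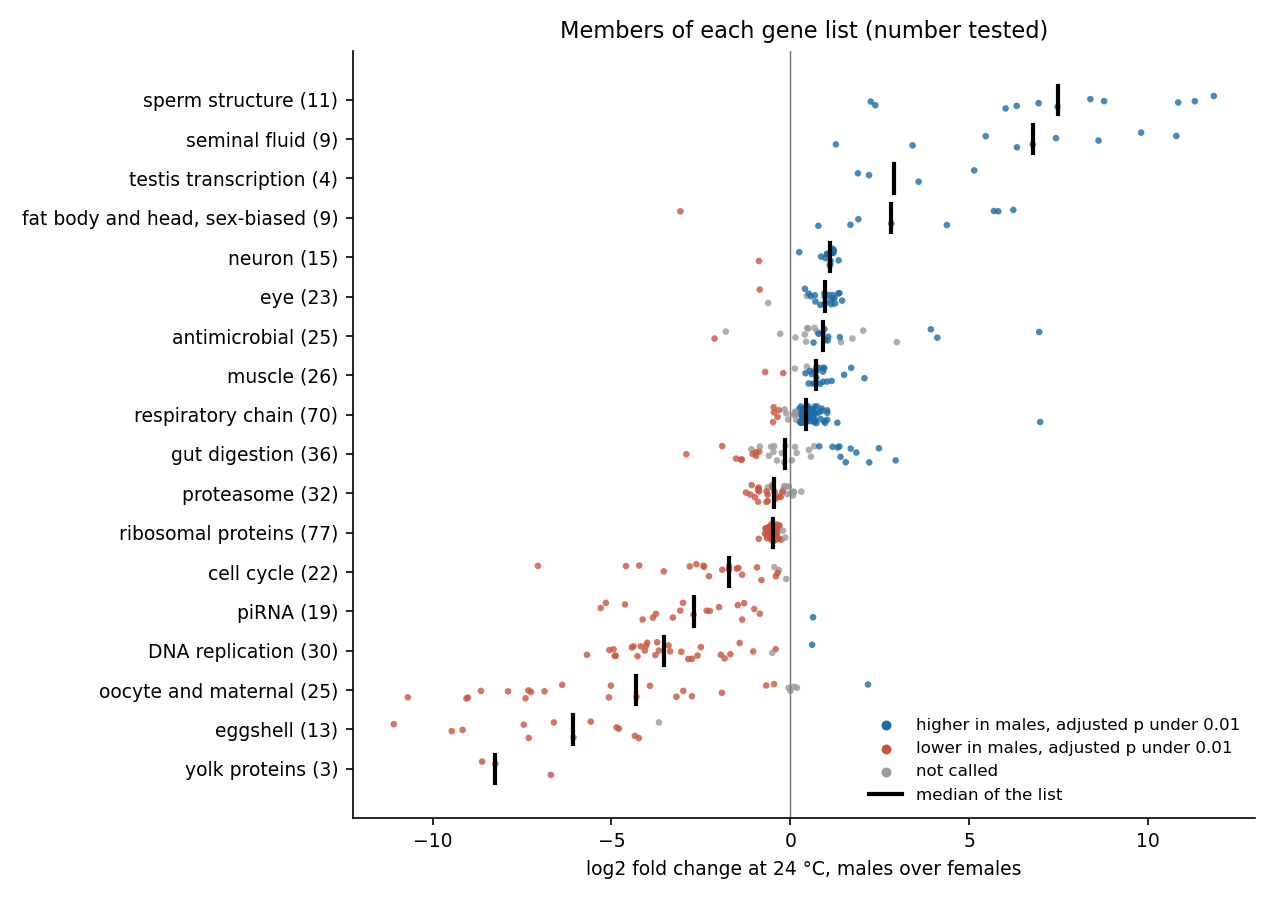
Each point is a gene placed by its log2 fold change at 24 °C, males over females (x axis), in the row of its gene list, with the number of members tested in brackets. Blue points passed an adjusted p of 0.01 and were higher in males. Red points passed and were lower in males, and grey points did not pass. Black bars are list medians. Among the lists drawn, these run from 7.47 for sperm structure genes at the top to −8.25 for the yolk proteins at the bottom. Left out are the testis proteasome, testis respiration, dosage compensation, sex determination, hydrocarbon and Turandot lists and the panel of insulin and TOR genes.

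The sex of each library was checked with genes that only 1 sex is known to express strongly. The non-coding RNA roX1 (lncRNA:roX1, on the X chromosome), a scaffold of the male dosage compensation complex, had 1103, 904, 870 and 756 CPM in the males, against 7.62, 6.41, 7.80 and 7.25 CPM in the females. Its log2 change was 6.96 ± 0.16 (SE; adjusted p = 1.7e-18). The 4 males matched their label in this gene, as did the 4 females. The yolk protein genes, which supply the main nutrient of the egg, were the opposite case. Yp1 had 17.4, 21.0, 21.0 and 14.4 CPM in males, against 4948, 7254, 6461 and 3744 CPM in females (log2 change −8.25 ± 0.49, adjusted p = 1.1e-12). Yp2 averaged 5.44 ± 0.735 CPM in males and 2129 ± 700 CPM in females (SD, n = 4 each), and Yp3 averaged 30.1 ± 1.198 CPM in males and 3112 ± 972 CPM in females. All 3 genes were called, with every male library under every female one. Both roX2 and the 12 Y-linked fertility genes asked for were not analysed here.

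**Figure D2:**
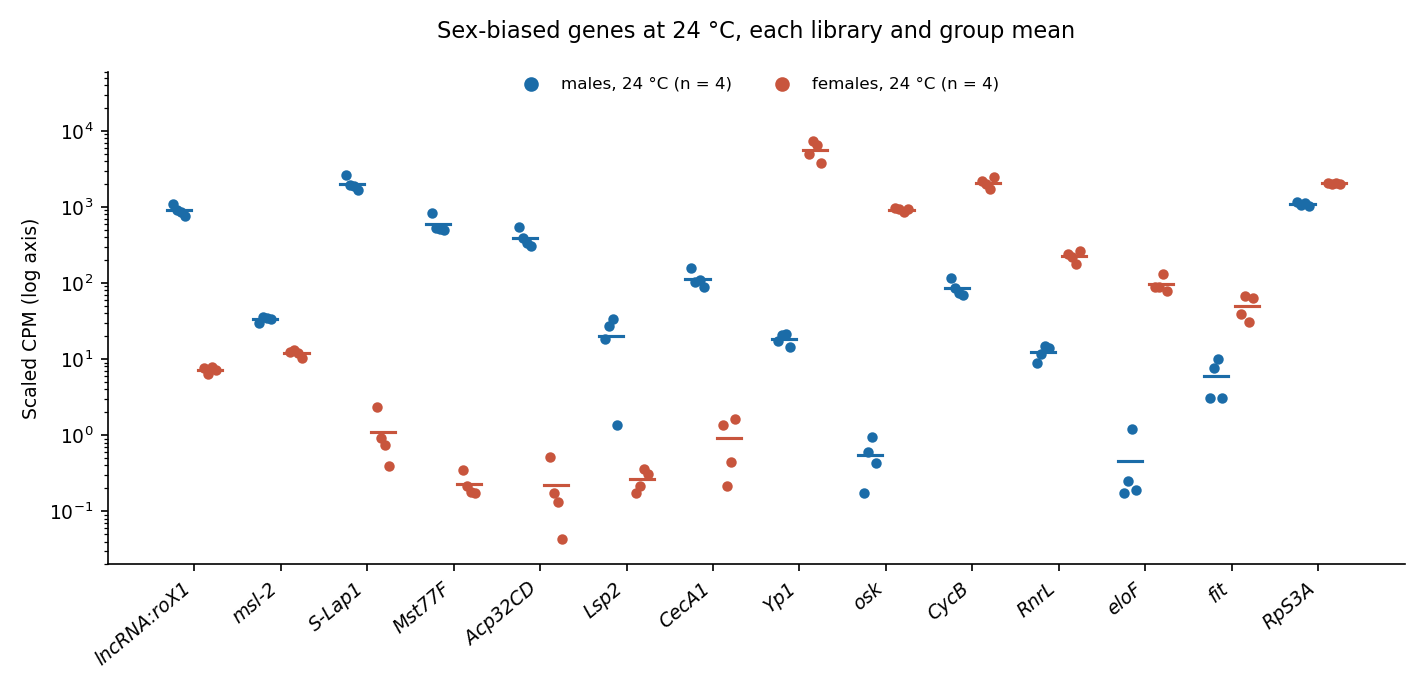
Scaled CPM on a log axis for 14 genes at 24 °C, with males in blue on the left of each pair and females in red on the right; points are libraries and bars are means of 4. The male and female points of each gene do not overlap; Yp1 lies between 14.4 and 21.0 CPM in males and between 3744 and 7254 CPM in females, and Lsp2 in males has 1 library at 1.38 CPM far below the other 3.

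Eggshell genes were lower in males. Of 22 vitelline membrane and chorion genes asked for, 13 were tested, 12 were lower in males and none was higher, with a median log2 change of −6.06 against 0.05 for all features. Vm34Ca, a vitelline membrane protein, had 0.0586, 0.152, 0.150 and 0.190 CPM in males, against 171, 364, 445 and 297 CPM in females. That is 1 to 4 counts per male library, and the females were 2254-fold higher by counts, with a 95% exact interval of 1260 to 4516 that covers counting error only. Vml and Vm26Ab, of the same layer, differed by log2 changes of −9.46 ± 0.69 and −9.16 ± 0.52. Cp15 had 13.2, 9.29, 8.02 and 6.18 CPM in males, against 15.1, 351, 81.8 and 297 CPM in females (log2 change −4.35 ± 0.99, adjusted p = 0.00041), so that female replicate 1 was close to the highest male. The chorion factor dec averaged 1.66 ± 0.615 CPM in males and 261 ± 70.4 CPM in females. The member that was not called, yellow-g, had 1.40 to 2.46 CPM in males and 2.26 to 73.5 CPM in females, with 73.5 CPM in female replicate 1 and 2.26 to 12.6 CPM in the other females (adjusted p = 0.012), and it was called lower with DESeq2 (0.0014), with only the 8 libraries (0.0083) and without female replicate 3 (0.0072) or 4 (0.0063).

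Genes of the oocyte and of the maternal store formed the next group. Of 25 members tested, 20 were lower in males, 1 was higher and 4 were not called; the median log2 change was −4.30. The posterior determinant osk had 0.176, 0.606, 0.952 and 0.428 CPM in males, against 962, 925, 864 and 928 CPM in females (log2 change −10.69 ± 0.25, adjusted p = 1.7e-18). The yolk receptor gene yl averaged 2.17 ± 0.416 CPM in males and 870 ± 71.0 CPM in females. The anterior determinant bcd averaged 1.16 ± 0.567 CPM in males and 96.0 ± 17.1 CPM in females, and swa, which is needed to place bcd RNA in the egg, differed by a log2 change of −7.89 ± 0.19. The germ plasm genes nanos and vas differed by −6.87 ± 0.19 and −4.30 ± 0.13. The kinase activator gnu, which acts at the start of embryonic cycles, averaged 0.352 ± 0.130 CPM in males and 188 ± 9.9998 CPM in females, and the maternal tubulin alphaTub67C averaged 0.550 ± 0.107 CPM in males and 288 ± 27.5 CPM in females. Male and female libraries of these genes were separated by more than a factor of 10.

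Some members of the same list took another course. The RNA localisation gene exu, which is known to act in the male germ line as well, had 1307, 938, 858 and 767 CPM in males, against 218, 203, 206 and 235 CPM in females (log2 change 2.17 ± 0.18, adjusted p = 4.3e-10). The 4 members not called were cup, tud, orb and grk, all known from oogenesis. Under TMM factors (0.26) and without female replicate 3 (0.24) grk was called higher in males. Their log2 changes were −0.05 ± 0.15 for cup, 0.00 ± 0.07 for tud, 0.10 ± 0.14 for orb and 0.18 ± 0.08 for grk, and male and female libraries of each overlapped. The translational repressor bru1 was lower in males by a small margin (log2 change −0.46 ± 0.13), a call lost when male replicate 2, male replicate 3, male replicate 4 or female replicate 4 was left out.

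The piRNA pathway silences transposons in germ cells with small RNAs. All 19 of its genes asked for were tested; 18 were lower in males, 1 was higher, and the median log2 change was −2.71. The gene piwi, which encodes the nuclear Argonaute protein of the pathway, had 2.99, 3.99, 3.31 and 3.71 CPM in males, against 125, 123, 116 and 137 CPM in females (log2 change −5.16 ± 0.14, adjusted p = 9.3e-18). The cytoplasmic partners AGO3 and aub differed less, by −3.28 ± 0.15 and −2.71 ± 0.12. Hen1, which methylates the ends of small RNAs and also serves the siRNA pathway, was the exception, with 18.4 ± 3.41 CPM in males and 11.9 ± 1.18 CPM in females (log2 change 0.63 ± 0.12, adjusted p = 6.4e-05).

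DNA replication and the cell cycle were also lower in males. Of 30 replication genes tested, 28 were lower and 1 was higher in males, with a median log2 change of −3.54. The origin recognition subunit Orc1 had 3.58, 2.27, 1.80 and 2.57 CPM in males, against 136, 122, 96.5 and 168.7 CPM in females (log2 change −5.69 ± 0.22, adjusted p = 9.3e-16). The helicase subunit Mcm5 averaged 4.03 ± 0.474 CPM in males and 124 ± 22.4 CPM in females. The sliding clamp PCNA and the nucleotide-making enzyme subunit RnrL differed by −3.78 ± 0.14 and −4.18 ± 0.17. A subunit of the GINS complex, Psf3, was the member that was higher in males, with 115 ± 18.4 CPM in males and 75.7 ± 4.65 CPM in females (log2 change 0.61 ± 0.10).

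Of 22 cell cycle genes, 19 were lower in males, none was higher, and the median log2 change was −1.71. The mitotic phosphatase stg had 2.81, 2.02, 2.26 and 2.00 CPM in males, against 316, 277, 240 and 373 CPM in females (log2 change −7.06 ± 0.20, adjusted p = 1.3e-17). The cyclins CycB, CycA and CycE differed by −4.59 ± 0.20, −4.23 ± 0.18 and −3.54 ± 0.21. The 3 members not called were twe, the meiotic relative of stg that is needed in both germ lines, at −0.12 ± 0.20, aurA at −0.32 ± 0.17 and cmet at −0.45 ± 0.17. Of these, aurA was called lower without male replicate 1 (−0.52), and cmet with the replicate block (−0.43) and without female replicate 3 (−0.56). Thus stg and twe, which encode phosphatases of the same kind, lay at opposite ends of the list.

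By amount rather than by ratio, the 10 falls with the largest difference in mean CPM, among genes whose libraries did not overlap and whose call held under each scaling, were Yp1, eEF1alpha1, Yp3, eEF2, Yp2, CycB, Hsc70-4, CG12374, Hsp83 and tral. Translation elongation factors stood beside yolk in this group. The factor eEF1alpha1 had 8368, 8826, 9409 and 8062 CPM in males, against 14242, 13858, 14341 and 14040 CPM in females (log2 change −0.70 ± 0.07, adjusted p = 1e-08). The factor eEF2 averaged 3487 ± 251 CPM in males and 5895 ± 227 CPM in females. Of the chaperones, Hsc70-4 averaged 3262 ± 168.5 CPM in males and 5155 ± 150 CPM in females, and Hsp83 averaged 1212 ± 188 CPM in males and 2576 ± 133 CPM in females. The RNA-binding protein gene tral, part of the oocyte's RNA granules, averaged 177 ± 9.09 CPM in males and 1475 ± 154.98 CPM in females. CG12374 was the least even of the group, with 17.9, 287, 209 and 380 CPM in males, against 1702, 2944, 1914 and 1646 CPM in females; its lowest value was that of male replicate 1. Of the 10 largest falls by ratio, 4 stood outside the gene lists (CG42704, CG6927, CG11674 and Pxt, a peroxidase needed in the ovary), with log2 changes of −9.78 ± 0.25, −9.14 ± 0.27, −8.92 ± 0.28 and −9.71 ± 0.25.

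Genes of the testis were higher in males. The deposited table held no value of 0 in any library, so genes with no reads in 1 sex may have no entry; of 33 sperm structure and spermatid genes asked for, 11 were tested and the other 22 were not analysed here. All 11 were higher in males, with a median log2 change of 7.47. S-Lap1, an aminopeptidase that is abundant in sperm, had 2600, 1965, 1881 and 1664 CPM in males, against 2.35, 0.910, 0.753 and 0.391 CPM in females (log2 change 10.84 ± 0.36, adjusted p = 8.5e-17). Mst77F, a protein of condensed sperm chromatin, had 830, 533, 515 and 495 CPM in males, against 0.348, 0.217, 0.177 and 0.174 CPM in females (log2 change 11.30 ± 0.33). Mst98Ca, of the male-specific transcript family, averaged 1094 ± 365 CPM in males and 0.294 ± 0.388 CPM in females. The other stages of sperm development moved the same way. The spermatid genes fzo (mitochondrial fusion), soti (caspase control) and ocn differed by 7.47 ± 0.28, 8.38 ± 0.35 and 6.33 ± 0.26. The meiosis gene bol averaged 769 ± 143 CPM in males and 148 ± 15.3 CPM in females, a smaller change of 2.37 ± 0.14.

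Transcription in spermatocytes is run by the meiotic arrest genes, of which 4 of 11 were tested. All 4 were higher in males, and the sizes differed between them. The gene tomb had 10.6, 7.17, 5.41 and 5.42 CPM in males, against 0.174, 0.0866, 0.310 and 0.217 CPM in females (log2 change 5.14 ± 0.36, adjusted p = 2.4e-11). The change was 3.58 ± 0.19 for topi, 2.20 ± 0.13 for mia and 1.89 ± 0.15 for achi. Male replicate 1 was the highest male library for each of these 4 genes, and without it all 4 were still higher in males, with a median of 2.78 against 2.89 with it. The median of the sperm structure genes was 7.26 without that library.

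The 10 rises with the largest ratio were those of 7 genes with a systematic name only (CG17097, CG9133, CG12699, CG4836, CG9029, CG4712 and CG5089), of the sperm genes Mst98Ca and Mst77F, and of Hsp60C, a chaperonin needed for sperm to form. CG17097 had 3656, 2681, 2614 and 2190 CPM in males, against 1.74, 0.0433, 0.133 and 0.0434 CPM in females (log2 change 12.45 ± 0.61, adjusted p = 4.3e-14). The female signal lay mostly in replicate 1. That was also so for CG4836, with 2188, 2134, 2191 and 2091 CPM in males, against 2.13, 0.433, 0.177 and 0.0869 CPM in females. CG4712 was read 1 or 2 times in each female library; by counts it was 3100-fold higher in males, with a 95% exact interval of 1328 to 9550. The log2 changes of CG9133, CG12699, CG9029, CG5089 and Hsp60C lay between 11.03 ± 0.32 and 11.93 ± 0.47. These genes ranked among the most abundant male differences as well: CG17097, CG4836 and CG9029 were also among the 10 largest rises in CPM.

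Of 61 seminal fluid genes asked for, 9 were tested, all 9 were higher in males, and the other 52 were not analysed here. Acp32CD, an accessory gland protein, had 548, 391, 336 and 307 CPM in males, against 0.522, 0.173, 0.133 and 0.0434 CPM in females (log2 change 10.78 ± 0.36, adjusted p = 7.4e-17). The genes lectin-46Ca and antr, whose products are needed for the long response of mated females to sex peptide, differed by 8.61 ± 0.27 and 5.46 ± 0.26. The ejaculatory duct esterase Est-6 averaged 521 ± 51.9 CPM in males and 48.9 ± 22.5 CPM in females, a change of 3.41 ± 0.27. The ejaculatory bulb protein EbpIII, with 851 ± 128 CPM in males and 353 ± 64.5 CPM in females, was the member nearest to even at 1.27 ± 0.15. The 9 members thus ran from 1.27 to 10.78 on the log2 scale.

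Many genes of general use have a relative, often known from the germ line. Pairs of this kind numbered 27 among those asked for, of which 11 had both genes tested. For RpL24-like, a relative in these 11 pairs, no such site was listed. Reads shared by near copies are split by estimation in these counts, so low values of a copy are uncertain. Of the ribosomal pairs, RpL22 had 1098, 949, 904 and 829 CPM in males, against 1428, 1392, 1496 and 1340 CPM in females (log2 change −0.58 ± 0.08), while RpL22-like had 56.5, 49.0, 44.4 and 39.0 CPM in males, against 0.0870, 0.390, 0.177 and 0.0869 CPM in females (log2 change 7.95 ± 0.35). The broad gene was lower and its relative higher in males. RpS5b, known from the ovary, went the other way: it had 28.8, 18.99, 16.5 and 15.6 CPM in males, against 449, 435, 454 and 417 CPM in females (log2 change −4.46 ± 0.20), whereas RpS5a was not called at −0.15 ± 0.08 (adjusted p = 0.10). RpS19b, a germ line copy of RpS19a also known from the ovary, averaged 30.8 ± 8.51 CPM in males and 0.643 ± 0.325 CPM in females. Unlike RpS5b, it was higher in males. For the cap-binding factors, eIF4E1 averaged 322 ± 45.1 CPM in males and 610 ± 44.3 CPM in females, and eIF4E3 averaged 123 ± 41.1 CPM in males and 3.19 ± 0.404 CPM in females. The tubulin pair parted most, with alphaTub84B at 0.63 ± 0.07 and alphaTub67C at −9.01 ± 0.20. Testis copies of the proteasome and of the respiratory chain were far higher in males: Rpt6R by 6.76 ± 0.26, COX4L by 8.61 ± 0.33 and SdhBL by 8.53 ± 0.32.

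**Figure D3:**
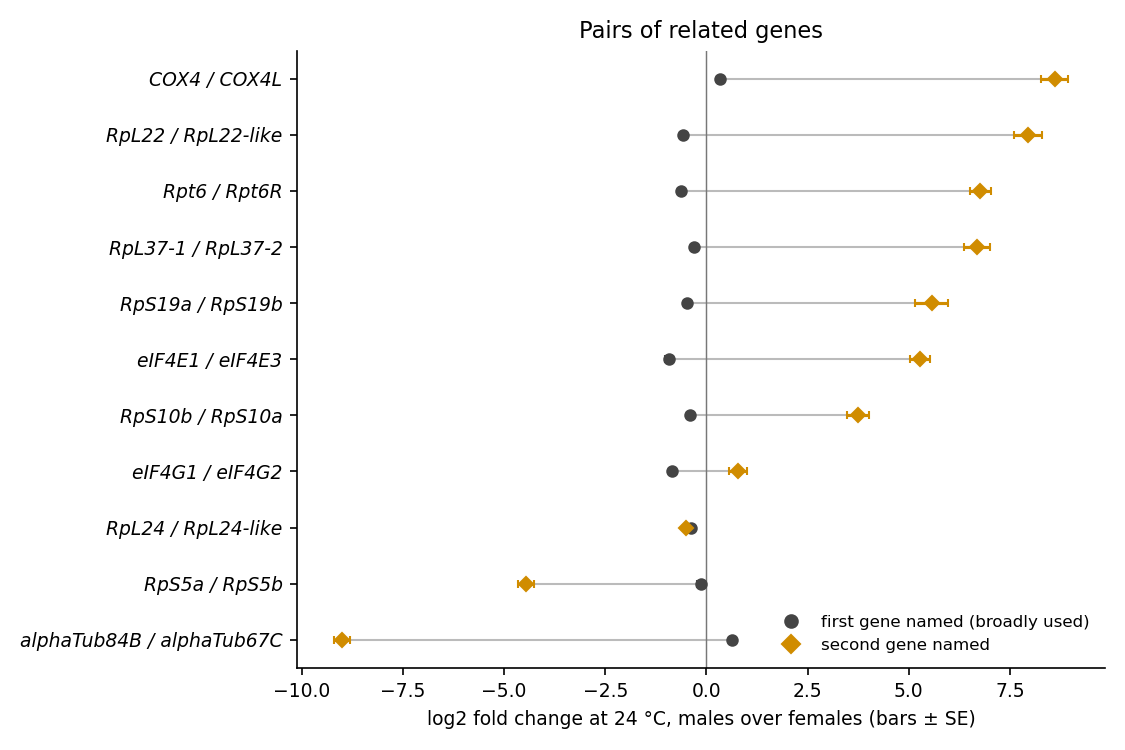
Log2 fold change at 24 °C, males over females (x axis, bars are SE), for 11 pairs of related genes; circles are the broadly used gene and diamonds its relative. The circles lie between −0.92 and 0.63, while 8 diamonds lie above 0.7, RpL24-like lies at −0.50, RpS5b at −4.46 and alphaTub67C at −9.01.

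The machinery of dosage compensation and of sex determination was read next. Of the MSL complex, only msl-2, whose translation is blocked in females, and roX1 were higher in males among the 7 genes tested. The gene msl-2 had 29.95, 35.3, 34.8 and 33.5 CPM in males, against 12.4, 13.2, 11.96 and 10.4 CPM in females (log2 change 1.48 ± 0.09, adjusted p = 1.3e-12). Its partner msl-1 had 20.6, 20.4, 20.9 and 24.0 CPM in males, against 150, 135, 113 and 169.04 CPM in females (log2 change −2.72 ± 0.14, adjusted p = 8.9e-14). The partners msl-3 and mof (the acetyltransferase), and the DNA-binding factor Clamp, were lower in males too, by −1.30 ± 0.13, −1.18 ± 0.11 and −0.46 ± 0.09. The helicase gene mle, with 72.4 ± 4.03 CPM in males and 65.1 ± 2.10 CPM in females, was not called (log2 change 0.15 ± 0.06, adjusted p = 0.017), although its 4 male libraries lay above its 4 female libraries and it was called higher in males under TMM factors, library totals and DESeq2. Genes of a single complex thus differed in sign.

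Of 10 sex determination genes, 3 were higher and 6 lower in males. The target genes of the cascade were higher: dsx had 81.2, 71.6, 73.7 and 76.9 CPM in males, against 28.3, 28.5, 31.4 and 23.19 CPM in females (log2 change 1.44 ± 0.11, adjusted p = 4e-11), and fru averaged 58.8 ± 7.90 CPM in males and 27.2 ± 2.68 CPM in females. The master switch Sxl averaged 117 ± 8.07 CPM in males and 198 ± 4.33 CPM in females (log2 change −0.77 ± 0.07). The splicing partner tra2 was higher in males by 0.62 ± 0.10, the dsx cofactor ix was lower by −1.24 ± 0.13, and tra, at 11.04 to 20.9 CPM in males and 13.4 to 16.3 CPM in females, was not called (log2 change −0.06 ± 0.16). Counts were made per gene, so the male and female splice forms of Sxl, tra, dsx and fru were not separated.

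By chromosome, the X differed from the autosomes. Over 1767 X-linked features the median log2 change was −0.26, against 0.09 over 8952 features of the large autosome arms. On the X, 28.2% of features were higher and 47.1% lower in males, whereas on the autosome arms 37.9% were higher and 35.1% lower. For each male library set against the female mean, the X median less the autosome median was −0.33, −0.34, −0.34 and −0.32, so the 4 males were alike. The gap was made of moderate changes as well as of large ones, since 6.62% of X-linked features were at least 4-fold higher and 7.70% at least 4-fold lower in males, against 8.59% and 4.87% on the autosome arms. The small chromosome 4 had a median of 0.25 over 86 features. The difference between X and autosomes is given as a description and was not tested.

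**Figure D4:**
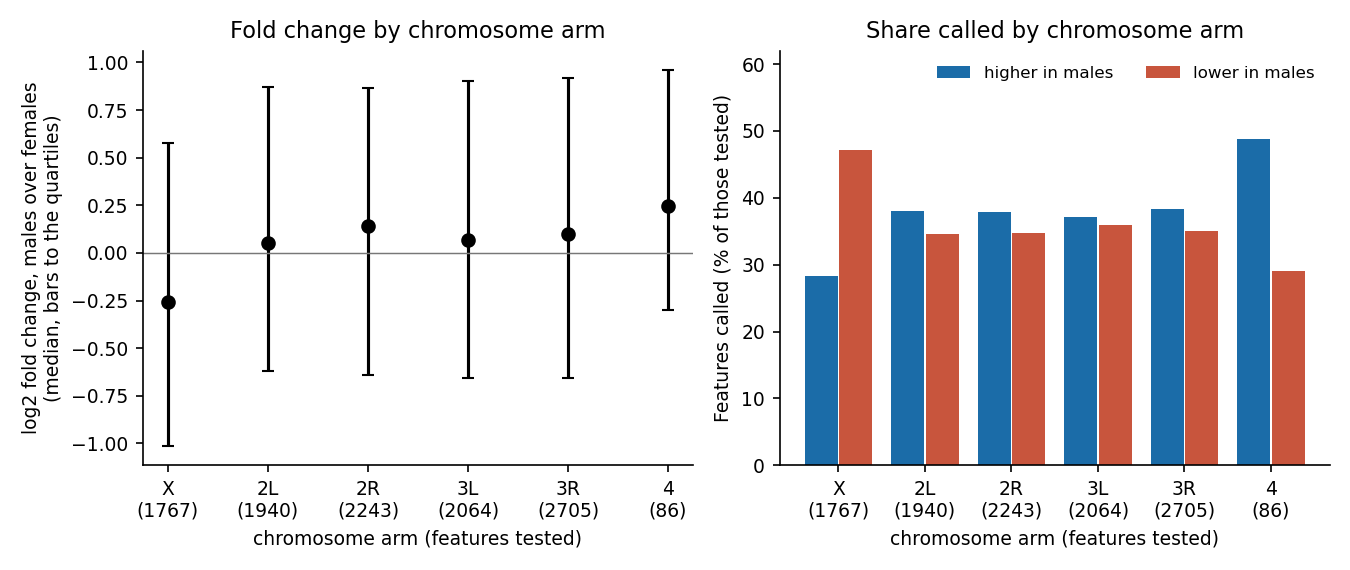
Left, the median log2 fold change of males over females at 24 °C for each chromosome arm, with bars from the lower to the upper quartile; right, the percentage of features on each arm called higher (blue) or lower (red) in males. The X has the lowest median at −0.26, and on the X alone does the red bar (47.1%) exceed the blue bar (28.2%).

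Outside the reproductive organs, known sex-biased genes of the fat body and head were tested for 9 of 11 members; 8 were higher and 1 was lower in males. Cyp4d21, a cytochrome P450 of the male fat body needed for courtship success, had 43.7, 57.7, 56.4 and 41.003 CPM in males, against 0.740, 1.95, 0.709 and 0.434 CPM in females (log2 change 5.69 ± 0.33, adjusted p = 9.1e-13). The lipase-family gene sxe2 averaged 81.8 ± 20.3 CPM in males and 3.95 ± 1.75 CPM in females, and the odorant-binding protein gene Obp99b averaged 219 ± 71.7 CPM in males and 3.90 ± 2.77 CPM in females. The storage protein gene Lsp2 had 18.2, 27.3, 33.5 and 1.38 CPM in males, against 0.174, 0.217, 0.354 and 0.304 CPM in females (log2 change 6.23 ± 0.91, adjusted p = 2e-06); male replicate 4 lay far under the other males but above each female. The feeding and courtship gene to differed only by 0.78 ± 0.19. The member lower in males was fit, a satiety signal of the female fat body, with 3.05, 7.68, 9.92 and 3.09 CPM in males, against 39.2, 67.4, 31.1 and 63.4 CPM in females (log2 change −3.08 ± 0.39, adjusted p = 3.1e-07).

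Cuticular hydrocarbons serve as sex pheromones, and 8 of 9 genes of their synthesis were tested. Among them, 3 were higher and 1 lower in males, and 4 were not called. The share higher was close to the 36.6% of all features, and the median log2 change was 0.05 against 0.05 for all features. The elongase eloF, which lengthens the dienes of females, had 0.176, 0.253, 1.203 and 0.190 CPM in males, against 89.1, 88.2, 131 and 79.0 CPM in females (log2 change −7.69 ± 0.37, adjusted p = 3.3e-14). The elongase bond went the other way, with 144 ± 18.3 CPM in males and 31.6 ± 8.61 CPM in females (log2 change 2.19 ± 0.18). The desaturase Desat1, used by both sexes, differed by 0.47 ± 0.14, and this call was lost without male replicate 3, female replicate 1 or female replicate 4. Other large differences in CPM in favour of males, none of them on these lists, were those of the alcohol dehydrogenase Adh, with 2224, 2670, 3237 and 1824 CPM in males, against 758, 901, 828 and 648 CPM in females (log2 change 1.67 ± 0.15), and of mfas, an extracellular matrix protein, with 1872 ± 182 CPM in males and 130 ± 14.66 CPM in females (log2 change 3.85 ± 0.16). The capsid-forming gene Arc1, the mucin Mur18B and CG18628 differed by 1.38 ± 0.14, 1.502 ± 0.16 and 4.09 ± 0.18.

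Nearly all ribosomal protein genes were lower in males by a small amount, and proteasome genes were lower or not called. Of 77 cytoplasmic ribosomal protein genes, 75 were lower in males and none was higher, with a median log2 change of −0.50 and a range from −0.88 to −0.15. RpS3A, the most changed, had 1153, 1075, 1140 and 1037 CPM in males, against 2063, 2008, 2083 and 1980 CPM in females (log2 change −0.88 ± 0.06, adjusted p = 2.1e-11). The 2 not called were RpS5a and RpS29, which stood at −0.15 ± 0.08 and −0.21 ± 0.08; without male replicate 1, RpS29 was called at −0.27 and 76 of the 77 genes were lower. Summed over the list, males had 78016 to 87942 CPM and females 107331 to 124447 CPM, without overlap. Of 32 proteasome genes, 20 were lower in males and none was higher, with a median of −0.47, although 2 were called higher with TMM factors and 1 each with library totals and DESeq2. Among them, 14 of 18 genes of the 19S regulator and 6 of 14 of the 20S core were lower, a subdivision made after the values were seen. The core had 8 genes not called, and its share lower was near the 36.8% of all features. Rpn1 of the regulator averaged 134 ± 12.6 CPM in males and 249 ± 10.9 CPM in females, and Prosalpha4 of the core averaged 69.8 ± 6.48 CPM in males and 165 ± 5.34 CPM in females. The ovary lists fell in males together with these lists, and their part in the fall of ribosomal and proteasome genes was not tested.

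Of a panel of 5 genes around insulin and TOR signalling, which links feeding to growth and lifespan, 4 were lower in males. These were mTor, S6k, InR and a further member, which lay at the list median of −0.57. The panel follows the study's commonly studied aging genes, among them InR, S6 kinase and ribosomal protein S6. Ribosomal protein S6 is a part of the ribosome. The kinase mTor averaged 40.9 ± 3.17 CPM in males and 63.7 ± 4.48 CPM in females, and its target S6k averaged 131 ± 12.5 CPM in males and 196 ± 5.75 CPM in females. The insulin receptor gene InR had 66.7, 54.1, 50.9 and 60.9 CPM in males, against 76.5, 74.3, 84.2 and 86.8 CPM in females (log2 change −0.47 ± 0.12, adjusted p = 0.0011). The receptor substrate chico was not called, with 54.9 ± 3.48 CPM in males and 62.5 ± 1.08 CPM in females (log2 change −0.19 ± 0.09, adjusted p = 0.059), although its 4 male libraries lay below its 4 female libraries.

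Genes of muscle, eye and neurons were higher in males, again by a modest amount. Of 26 muscle genes, 22 were higher and 2 lower in males, with a median log2 change of 0.72. The myosin heavy chain gene Mhc had 1369, 1381, 1424 and 1534 CPM in males, against 717, 833, 858 and 554 CPM in females (log2 change 0.95 ± 0.11, adjusted p = 6.1e-08). The titin relative bt averaged 689 ± 75.97 CPM in males and 338 ± 34.1 CPM in females, and the actin Act79B, known for higher use in males, averaged 274 ± 27.2 CPM in males and 65.3 ± 9.001 CPM in females. The 2 lower members were the troponin TpnC73F at −0.71 ± 0.13 and the tropomyosin Tm1, which is also used in the oocyte, at −0.20 ± 0.06; the call of Tm1 was lost under TMM factors (−0.12), under library totals (−0.19), with only the 8 libraries (−0.22) and without male replicate 1, male replicate 2 or female replicate 1.

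Of 23 eye genes, 20 were higher and 1 lower in males, with a median of 0.96. The rhodopsin ninaE, which had the largest rise in CPM of all genes that met the naming conditions, had 8298, 7862, 6665 and 6518 CPM in males, against 3366, 3112, 4145 and 2816 CPM in females (log2 change 1.13 ± 0.15, adjusted p = 4e-07). The arrestin Arr1 and the rhodopsin Rh6 differed by 1.37 ± 0.16 and 1.45 ± 0.15. The lipase inaE, which is not confined to the eye, was lower in males at −0.86 ± 0.08. Of 15 neuronal genes, 14 were higher and 1 lower in males, with a median of 1.11. The neuronal RNA-binding protein gene elav had 53.6, 53.6, 51.9 and 51.1 CPM in males, against 27.1, 28.4, 32.8 and 27.7 CPM in females (log2 change 0.86 ± 0.10), and the synapse gene brp averaged 83.9 ± 3.59 CPM in males and 33.0 ± 4.00 CPM in females. The member lower in males was the syntaxin gene Syx1A, which is used beyond neurons, at −0.88 ± 0.19. The summed level of the oocyte genes was 2258 to 3180 CPM in males and 6007 to 7240 CPM in females, and its part in the levels of muscle, eye and neuron genes was not tested.

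The respiratory chain showed an uneven picture. Of 70 genes, 55 were higher and 5 lower in males, with a median log2 change of 0.44. Grouped by complex, a grouping made after the values were seen, 31 of 34 genes of complex I, 4 of 4 of complex II, 8 of 9 of complex III and 6 of 9 of complex IV were higher in males and none was lower. The 13 genes of ATP synthase split, with 6 higher and 5 lower in males. Such a split was near that of all features, of which 36.6% were higher and 36.8% lower. ND-13A of complex I had 176, 129, 126 and 119 CPM in males, against 53.0, 54.6, 59.7 and 54.2 CPM in females (log2 change 1.31 ± 0.13), and UQCR-Q of complex III averaged 320 ± 44.3 CPM in males and 163 ± 13.8 CPM in females. The catalytic ATP synthase genes blw (alpha) and ATPsynbeta were lower in males: ATPsynbeta had 744, 899, 933 and 943 CPM in males, against 1218, 1229, 1238 and 1161 CPM in females (log2 change −0.46 ± 0.06, adjusted p = 1e-06), and blw differed by −0.36 ± 0.05. ATPsynC, the proton-carrying ring, differed by −0.47 ± 0.06. The member at the far end was ND-B8, listed as a complex I gene, with 23.7, 14.9, 12.8 and 12.3 CPM in males, against 0.0435, 0.0866, 0.177 and 0.174 CPM in females (1 to 4 counts per female library, 130-fold by counts, 95% exact interval 72.4 to 261). Without male replicate 1, 52 of the 70 genes were higher and 5 lower.

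In the gut, most carbohydrate enzymes were higher in males, while most proteases were not called; the grouping was made after the values were seen. Of 12 amylase and maltase genes, 9 were higher and 1 lower in males, with a median of 1.47. Of 24 trypsin and Jonah serine protease genes, 2 were higher, 8 lower and 14 not called, with a median of −0.51; the share lower was close to the 36.8% of all features. The maltase Mal-A7 had 161.9, 357, 263 and 213 CPM in males, against 25.5, 37.0, 38.4 and 28.8 CPM in females (log2 change 2.94 ± 0.37, adjusted p = 2.2e-07). The amylase Amy-p, which is almost identical to its neighbour Amy-d, had 275, 1427, 1207 and 937 CPM in males, against 268, 292, 260 and 252 CPM in females (log2 change 1.84 ± 0.32), so that male replicate 1 fell within the female range. Mal-A1 had 403, 1347, 1106 and 931 CPM in males, against 299, 264, 309 and 426 CPM in females. The maltase lower in males was Mal-A5, with 56.7 ± 4.38 CPM in males and 145 ± 6.82 CPM in females. Of the proteases, Jon99Fi had 14.01, 14.8, 7.67 and 22.3 CPM in males, against 61.6, 110, 168.8 and 101 CPM in females (log2 change −2.91 ± 0.56, adjusted p = 6.5e-05). Jon99Cii was lower in males by −0.87 ± 0.27, with overlapping libraries and a call that was lost under TMM factors (−0.81), with only the 8 libraries (−0.88), and without male replicate 1, male replicate 3, female replicate 2 or female replicate 3. Without male replicate 1, 5 proteases were lower in males rather than 8, their median was −0.28, and the counts of the carbohydrases stayed at 9 and 1.

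Immune genes varied more between libraries. Of 25 antimicrobial genes, 11 were higher and 1 lower in males, with a median of 0.90. Another 13 were not called, and among all features 36.6% were higher in males. The cecropin CecA1, an antibacterial peptide, had 156, 102, 110 and 87.8 CPM in males, against 1.35, 0.217, 0.443 and 1.65 CPM in females (log2 change 6.95 ± 0.55, adjusted p = 1.8e-10). The attacin AttB averaged 33.5 ± 10.6 CPM in males and 1.94 ± 1.13 CPM in females. Of 12 Bomanin genes, short peptides of the Toll pathway, 8 were higher in males and none was lower, among them BomBc3 with 96.5 ± 21.4 CPM in males and 37.0 ± 3.34 CPM in females. Among the 13 other antimicrobial genes, 3 were higher and 1 lower in males, and 9 were not called. The median log2 change was 1.41 for these 13 genes and 0.84 for the Bomanins, so fewer calls did not go with a smaller median. This division was made with earlier results of these data known. The antifungal peptide Drs was the member lower in males, with 81.0, 50.7, 89.7 and 37.3 CPM in males, against 300, 244, 316 and 264 CPM in females (log2 change −2.12 ± 0.29, adjusted p = 8.7e-07). The diptericin DptA had 7.74, 5.10, 33.2 and 5.66 CPM in males, against 1.61, 0.433, 0.576 and 3.95 CPM in females; it was not called at an adjusted p of 0.011 and was called with TMM factors (0.0091), with DESeq2 (0.0015), with only the 8 libraries (0.0063), and without male replicate 2, male replicate 4 or female replicate 4.

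The Turandot genes encode secreted peptides that are induced by stress. Only TotA, TotC, TotM and TotX, a part of the family, were asked for. TotM had 6.62, 37.6, 23.3 and 6.94 CPM in males, against 3.52, 6.06, 4.12 and 3.69 CPM in females (log2 change 2.10 ± 0.65, adjusted p = 0.0059), a call that was lost without male replicate 2, male replicate 3 or any of female replicates 1, 3 and 4. TotX averaged 18.2 ± 4.97 CPM in males and 4.48 ± 1.42 CPM in females (log2 change 2.02 ± 0.52). TotA and TotC were not called, at 1.14 ± 0.50 and 0.58 ± 0.65, and their male and female libraries overlapped.

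Finally, the sex difference at 24 °C was set against those at 18 and 28 °C. At 18 °C, 82.3% of features were called between the sexes (42.6% higher and 39.7% lower in males), against 73.4% at 24 °C and 72.4% at 28 °C (37.1% higher and 35.3% lower in males). The share at 28 °C rests on 3 male libraries rather than 4 and on younger flies, so it is not directly comparable. Of the genes called at 24 °C, 7426 were also called at 18 °C, 7384 of them in the same direction, and 6915 were also called at 28 °C, 6857 of them in the same direction. A test of the difference itself called 1505 features between 24 and 18 °C (13.8%), 751 with a higher (6.89%) and 754 with a lower (6.92%) log2 change at 24 °C; with TMM factors the split was 483 and 1018, and with library totals 602 and 882. Between 24 and 28 °C, where age also differs, 594 features were called (5.45%), 219 higher (2.01%) and 375 lower (3.44%); with TMM factors the split was 282 and 172. The first count rests on single libraries, as leaving out replicate 3 of the females at 24 °C gave 784, replicate 1 or 3 of the females at 18 °C gave 898 or 942, replicate 2 of the males at 18 °C gave 932, and replicate 2 of the males at 24 °C gave 983. The count against 28 °C was 354 or 382 when replicate 2 or 1 of the males at 28 °C was left out. The direction of both splits moved with the scaling.

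**Figure D5:**
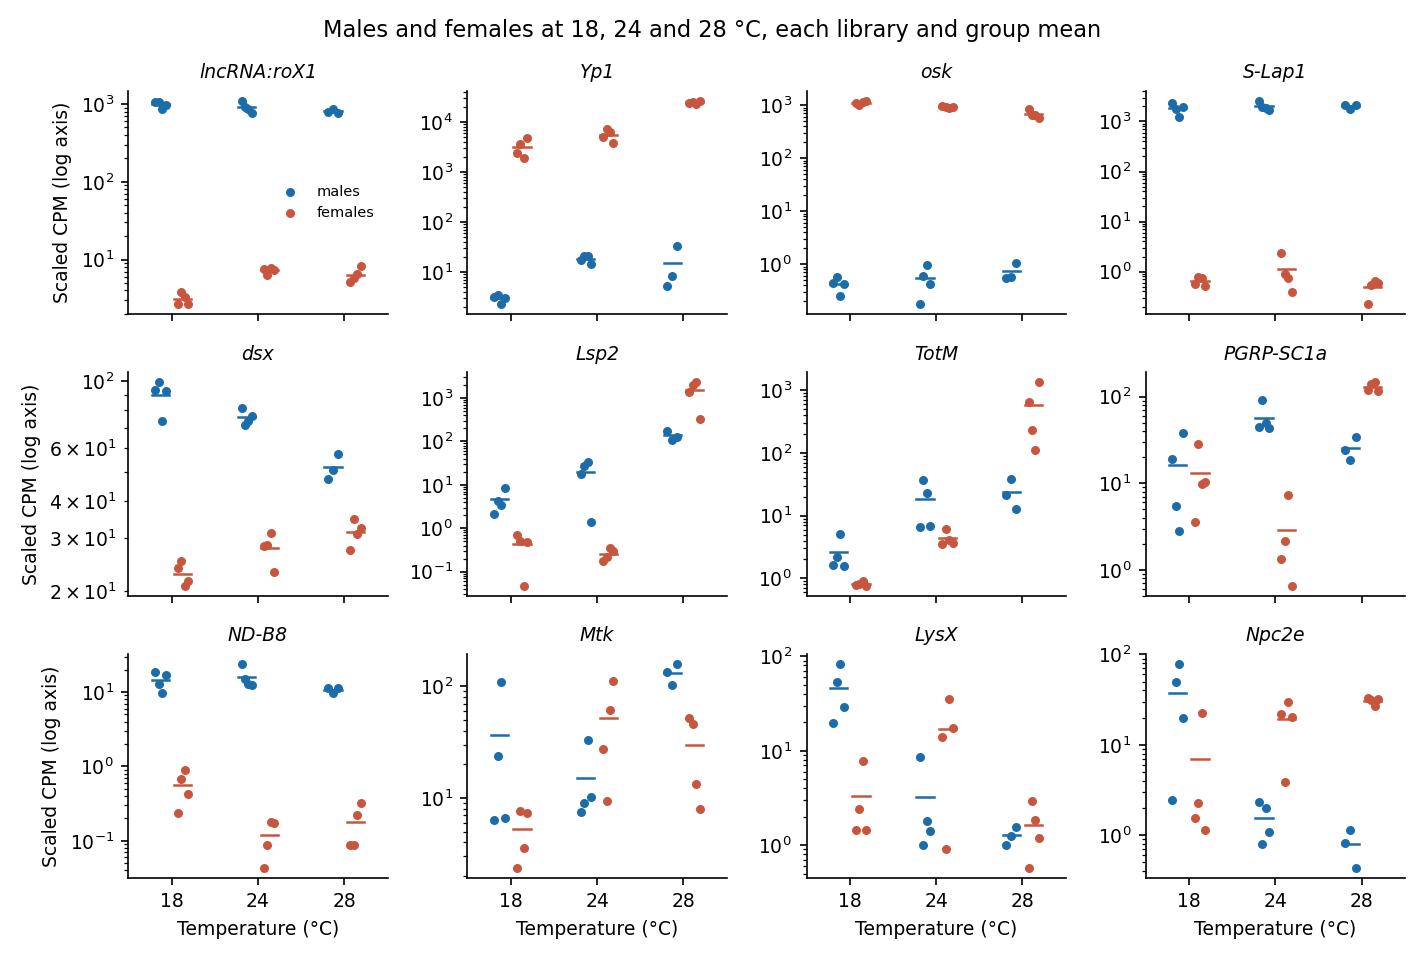
Scaled CPM on a log axis of 12 genes in males (blue, left) and females (red, right) at 18, 24 and 28 °C; points are libraries (4 per group, 3 for males at 28 °C) and bars are means. The points for roX1, osk and S-Lap1 stay far apart at each temperature, Lsp2 and TotM are higher in males at 24 °C and lower in males at 28 °C, and LysX and Npc2e are lower in males at 24 °C but not at 18 °C.

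Named by size of the difference from 18 °C, the genes with the most positive change were PGRP-SC1a, CG11854, CG14545, ND-B8 and twy. PGRP-SC1a, an enzyme that cuts bacterial peptidoglycan, had 44.7, 91.3, 50.2 and 43.3 CPM in males at 24 °C, against 1.35, 2.17, 7.40 and 0.651 CPM in females at 24 °C. At 18 °C males averaged 16.4 ± 16.2 CPM and females 13.1 ± 10.8 CPM, and the sex difference was 3.99 ± 0.96 higher at 24 °C (adjusted p = 0.0050). For CG11854 the log2 change was 5.33 at 24 °C and 1.84 at 18 °C, and for CG14545, a gene lower in males, it was −3.50 at 24 °C and −6.03 at 18 °C. The change of ND-B8 was larger at 24 °C than at 18 °C by 2.29 ± 0.60 and that of twy by 1.94 ± 0.25.

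The most negative differences were those of LysX, Npc2e, CG13324, Mtk and Mur29B, and each of the 5 was higher in males at 18 °C but not at 24 °C. The lysozyme LysX had 8.56, 1.01, 1.80 and 1.43 CPM in males, against 14.01, 0.910, 35.3 and 17.3 CPM in females at 24 °C (log2 change −2.44), whereas the change at 18 °C was 3.82; the difference was −6.25 ± 1.10 (adjusted p = 0.00083). The call of LysX at 24 °C itself was lost with the replicate block (−2.24), with only the 8 libraries (−2.45) and without any of male replicates 2, 3 and 4 or female replicates 3 and 4. For Npc2e, of a sterol-binding protein family, the changes were −3.62 at 24 °C and 2.44 at 18 °C. The antifungal peptide Mtk and CG13324 were not called at 24 °C, at −1.80 ± 0.82 and −0.73 ± 0.58, and were at 2.81 and 3.95 at 18 °C. The mucin Mur29B was at −1.74 ± 0.49 at 24 °C, a call lost without male replicate 1, and at 2.37 at 18 °C.

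Of the sex markers, roX1 differed by 6.96 at 24 °C and 8.31 at 18 °C, a difference of −1.35 ± 0.20 (adjusted p = 0.00025); males averaged 992 ± 101 CPM at 18 °C and 908 ± 145 CPM at 24 °C, while females averaged 3.11 ± 0.546 CPM at 18 °C and 7.27 ± 0.616 CPM at 24 °C. Against 28 °C, Yp1 and Yp3 were less far apart at 24 °C, by 2.39 ± 0.55 and 2.77 ± 0.34, with female means for Yp1 of 5602 ± 1565 CPM at 24 °C and 24538 ± 1642 CPM at 28 °C. Lsp2 turned round, with a log2 change of 6.23 at 24 °C and −3.45 at 28 °C (difference 9.68 ± 1.13, adjusted p = 1.2e-05). So did TotM and TotX, although the call of TotM at 24 °C was lost when any 1 of 5 libraries was left out: the log2 change of TotM was 2.10 at 24 °C against −4.59 at 28 °C, that of TotX 2.02 at 24 °C against −2.87 at 28 °C, and both differences passed the test (6.69 ± 0.97 and 4.89 ± 0.77). For dsx the change was 1.97 (18 °C), 1.44 (24 °C) and 0.72 (28 °C), and the step between 24 and 28 °C passed the test (0.73 ± 0.15, adjusted p = 0.0035).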

How the data were processed

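Poly-A RNA was sequenced as 100 bp pairs on the BGISEQ-500. As the study's methods and the submitters' processing notes state, the authors aligned cleaned reads with HISAT, assembled them with StringTie, mapped them to transcripts with Bowtie2 and deposited RSEM expected counts per gene (build dm6; versions and strand are not given in the sources used here). The deposited expected counts were rounded to whole numbers. The table held 11152 features, no value of 0 and 23 libraries. Symbols and positions came from RefSeq by gene ID, which matched 11073 features and left 79 unmatched.

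Counts were fitted with edgeR 4.0.16 (R 4.3.3, limma 3.58.1), with 6 group means over 23 libraries, RLE size factors and no replicate block. Features needed a mean of 0.5 CPM over the libraries. The threshold was an adjusted p of 0.01. Code was tested on simulated counts with 200 changed genes. DESeq2 1.42.0, TMM factors, library totals, other filters, a replicate block, a threshold of 0.05, only the 8 libraries and each library left out were alternatives. Named genes were the 10 largest rises and falls in CPM, and by ratio (mean of 5 CPM or more in the higher sex), among called genes without overlap whose call held under 3 scalings, the 5 largest differences from 18 °C in each direction, the sex checks, and list members. Members and lists were chosen with earlier results of these data known. The labels call replicates bioreps, each a pool of 10 flies, and p-values measure the spread between these samples. Total counts of 17727137 to 22464009 per library set the precision, and intervals cover counting error only. No strand was stated, so a gene and its antisense partner cannot be told apart, and counts of near copies are estimates. The promoter motif search was not run.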

Additional observations from a re-analysis of the deposited data

Results flagged for a closer look

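In 25 of 322 groups of 4 libraries (the named genes, males and females at 24 °C) 1 library lay far from the other 3 by Dixon's test; chance alone does so in about 1 group in 20. Male replicate 1 was that library 8 times, male replicate 2 once, male replicate 3 on 3 occasions and male replicate 4 once. Female replicate 1 was that library 6 times, replicate 2 on 3 occasions, replicate 3 once and replicate 4 on 2 occasions. The highest library stood apart in males for Mst77F at 830 CPM, Vm26Ab at 0.938 CPM, PGRP-SC1a at 91.3 CPM, LysX at 8.56 CPM, Mtk at 33.0 CPM, msl-1 at 24.0 CPM, Clamp at 107 CPM, eloF at 1.203 CPM, bt at 802 CPM, DptA at 33.2 CPM, S6k at 149 CPM, mle at 78.4 CPM and tra at 20.9 CPM. The highest library stood apart in females for CG17097 at 1.74 CPM, CG4836 at 2.13 CPM, CG9029 at 1.70 CPM, CG9133 at 0.870 CPM, Mst98Ca at 0.870 CPM, CG4712 at 0.0866 CPM, Est-6 at 82.1 CPM, RpS19b at 1.13 CPM, Obp99b at 8.03 CPM, UQCR-Q at 184 CPM and yellow-g at 73.5 CPM. The lowest female library stood apart for dec at 156 CPM.

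The sex difference at 24 °C differed from that at 18 °C for 22 named genes, by edgeR's quasi-likelihood test of the difference itself with Benjamini-Hochberg adjustment at 0.01. Log2 differences, 24 less 18 °C, were positive for PGRP-SC1a (3.99), CG11854 (3.49), CG14545 (2.53), ND-B8 (2.29), twy (1.94), cmet (0.94), vas (0.86), cup (0.81), tral (0.71) and Prosalpha4 (0.48). They were negative for LysX (−6.25), Npc2e (−6.07), CG13324 (−4.68), Mtk (−4.62), Mur29B (−4.11), Arc1 (−1.42), lncRNA:roX1 (−1.35), topi (−1.15), TpnC73F (−0.94), mfas (−0.86), Rh6 (−0.85) and Mal-A5 (−0.47).

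Against 28 °C, where the flies were also younger, 21 named genes passed the same test. Log2 differences, 24 less 28 °C, were positive for Lsp2 (9.68), TotM (6.69), PGRP-SC1a (6.65), TotC (5.53), TotA (5.18), TotX (4.89), Obp99b (3.36), Yp3 (2.77), Yp1 (2.39), Est-6 (2.30), Adh (1.53), Mur18B (1.34) and dsx (0.73). They were negative for InR (−0.93), bol (−0.93), orb (−0.86), Hsc70-4 (−0.69), RpL22 (−0.57), chico (−0.54), eEF2 (−0.50) and RpS3A (−0.45). The 4 Turandot genes asked for, a part of the family, were all among the positive differences.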

How the results depend on the processing

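Between males and females at 24 °C the count of 7999 calls lay between 7221 and 8788 over the other settings, and between 7623 and 8109 when 1 library was left out. The median of all features was 0.12 with TMM factors against 0.05, and the split of calls was 4279 higher and 3776 lower in males. Counts for the comparison of temperatures moved more. Between 24 and 18 °C, 3635 features passed at a threshold of 0.05, against 1505 at 0.01, and leaving out 1 library gave 784 to 2123 (1798 without female 24 °C replicate 4). The share of those calls that were higher at 24 °C was 49.9%, but 32.2% with TMM factors, 40.6% with library totals and 41.3% with a minimum in every library. Between 24 and 28 °C, 1399 passed at 0.05 and 928 with DESeq2, against 594, leaving out 1 library gave 354 to 683, and the share higher was 36.9%, but 62.1% with TMM factors. The cause was not tested.

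The replicate numbers did not pair the samples: correlations of same-numbered males and females were 0.12, 0.22, 0.04 and −0.10, and not every sample correlated best with its own number. With the replicate block 8171 genes were called at 24 °C, 2032 between 24 and 18 °C and 674 between 24 and 28 °C. Among the named genes, 13 had a call changed by leaving out a library. The signs that turned belonged to genes that were not called: cup was at 0.028 and tra at 0.016 with TMM factors, and tud at −0.011 with only the 8 libraries. Leaving out 1 library gave −0.14 to 0.016 for cup, −0.024 to 0.045 for tud, −0.026 to 0.18 for orb, −0.28 to 0.044 for twe and −0.29 to 0.054 for tra. Of the list counts, 144 stayed within 1.5 times under other scalings or DESeq2 and 6 did not. These were the oocyte genes higher in males (2 with TMM factors, against 1), the muscle genes lower in males (1 with TMM factors and with library totals, against 2) and the proteasome genes higher in males (2 with TMM factors and 1 with library totals and with DESeq2, against 0). The X median less the autosome median was −0.35, against −0.32 with a minimum in every library and −0.37 to −0.34 without 1 library of 24 °C. Genes read a few times in 1 sex are limited by depth. The promoter motif search was not run.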

Other observations

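Gene classes outside the lists differed in direction. Of 171 antisense RNAs tested, 97 were higher and 10 lower in males, with a median log2 change of 0.94, and of 213 long non-coding RNAs 104 were higher and 31 lower, with a median of 0.75. Without stated strand, antisense RNAs cannot be told from their partner genes. Of 10394 protein-coding genes, 3720 were higher and 3948 lower in males, with a median of 0.01. Of 7 snRNAs, 1 was higher and 6 were lower in males, with a median of −3.07; the libraries were made from poly-A RNA. Of 88 features for which RefSeq gave no gene class, 55 were higher and 11 lower in males.

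Because the table holds no value of 0, every gene in it had a value in both sexes, and the low levels that follow describe only such genes. The 252 genes higher in males by a log2 change of 6 or more summed to 36311 to 61848 CPM in males and 126 to 166 CPM in females, highest in female replicate 1. The 39 genes lower in males by as much summed to 74.9 to 89.4 CPM in males and 15149 to 21811 CPM in females. The source of these low values was not tested.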
